A study of Homo sapiens with 10 samples.

Results

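The histone genes were taken from the deposited annotation by symbol, as names that begin with HIST and a digit followed by H, or with H1F, H2AF or H3F3, leaving out those numbered as pseudogenes. The rule gave 92 of the 57110 genes in the annotation. Of these, 75 carry HIST symbols and are called replication-dependent here, 16 encode histone variants, and 1 is an antisense RNA, H1FX-AS1, that the rule takes in by its name and that stayed close to 0 in every library. Of the 75, HIST2H2BA, HIST2H2BB, HIST2H2BC and HIST3H2BA have no coding sequence annotated. The rule used symbols only and no measured value, though the members were chosen with earlier results of these data known.

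Histones are the proteins around which DNA is wrapped: H2A, H2B, H3 and H4 form the core of the nucleosome, and H1 binds the linker DNA between nucleosomes. Replication-dependent histone mRNAs are made in S phase, mostly lack introns, and in their usual form end shortly after a conserved hairpin, the histone stem-loop, without a poly(A) tail. Variant histone mRNAs are made throughout the cell cycle, are polyadenylated like other mRNAs, and encode proteins such as H3.3 and H2A.Z that are deposited outside replication.

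The study sequenced RNA of 7 ovarian cancer cell lines on nanopore instruments, which read whole molecules, to benchmark a program for transcript quantification. SK-OV-3, OVMANA, OVKATE, OVTOKO, COV362 and COV504 each had 1 library on the PromethION instrument, and IGROV-1 had 2 PromethION libraries and 2 from the MinION, a smaller device. The labels name no treatment, added allele or agent for any line. Nothing in the labels says that the IGROV-1 libraries came from separate cultures, so p-values measure only the spread between these libraries, which may be technical. Total RNA is named as the starting molecule, and how reverse transcription was primed is not given in the sources used here.

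Library totals ran from 1729782 to 3666224 counts, with the MinION libraries deepest. Levels are given as CPM, counts scaled to a common library total. A molecule was taken to give about 1 read whatever its length, so CPM was compared between genes without dividing by length. Whether short molecules were recovered as well as long ones was not tested. Summed epithelial markers lay between 569 and 8883 CPM, and the 2 IGROV-1 replicates differed in them on both instruments (621 and 1357 CPM on PromethION, 569 and 1437 CPM on MinION). E-cadherin (CDH1) had 0 counts in all 4 IGROV-1 libraries. Summed leukocyte markers reached 12.4 CPM at most, almost all of it LYZ in OVKATE, and summed endothelial markers 25.8 CPM, most of it CDH5 in COV504. Summed fibroblast markers were highest in SK-OV-3 at 272 CPM, of which COL1A1 gave 219 CPM and LUM 52.7 CPM, while DCN had at most 1 count in any library. The part of these markers in the histone differences between lines was not tested.

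The stem-loop marks the usual end of replication-dependent histone mRNAs, so its forms in the annotated transcripts are shown here first. The 2 classes were set by symbol and not by this sequence. It was searched as a consensus of 16 bases, an arm of 6, a loop of 4 and an arm of 6, with a choice of bases at some positions. The arms were not required to pair. The search was on the RNA strand written as DNA, in the GENCODE 29 transcripts of the members on GRCh38. Loop bases are in capitals, and each name gives how many genes hold that form.
Form in 19 genes, among them HIST1H2AC, HIST2H2AA4, HIST2H2BE and HIST3H2A: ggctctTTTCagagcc
Form in 5 genes, among them HIST1H2BD and HIST1H3G: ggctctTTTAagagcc
Form in 5 genes, all of them H4 genes and among them HIST1H4E and HIST1H4H: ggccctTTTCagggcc
Form in 3 genes: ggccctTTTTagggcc
Form in 2 genes: ggctctTTTCagggcc
Form in HIST1H3E: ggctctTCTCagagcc
Form in the variant gene H2AFX: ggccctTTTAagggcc
A stem-loop was found in 39 of 87 replication-dependent transcripts and in 1 of 36 variant transcripts, that of H2AFX, against 0.0894% of all annotated transcripts searched. The match is a description of the annotated sequence and no evidence of processing there.

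Annotated ends differed among the replication-dependent transcripts. In 35 of 87 the annotation stops at the end of the coding sequence, so the part that would hold the stem-loop is not annotated. In 33 the annotated 3′ end lies more than 30 bases past the stem-loop, in 6 within 30 bases of it, and the other 13 have no full match, 9 of them with an annotated 3′ UTR and 4, of HIST2H2BA and HIST2H2BB, with no coding sequence annotated. The median length was 1196 nt for ends past the stem-loop and 447 nt for ends at it. Of the 33 transcripts that run past the stem-loop, 18 carry a polyadenylation signal, AATAAA or ATTAAA, in their last 50 bases, against 1 of the 6 that end at it. These are properties of the annotation, and the files hold no read ends.

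Annotated ends of 3 genes bear on the results below, and their last 30 bases are printed with the part that matters in capitals.
HIST1H4C, last 20 bases in capitals: tgagaacttcAAAAAACAAAAACAAAAAAA
HIST1H1E, bases of an incomplete stem-loop in capitals: gcccaacacaacccaaaGGCTCTTTTCAGA
HIST1H2BD spliced transcript, polyadenylation signal in capitals: taattAATAAAatctgcggagaattgtaaa
The annotated HIST1H4C transcript, 435 nt long with a 3′ UTR of 51 nt, stops in a run in which 18 of the last 20 bases are A. Only 2 replication-dependent transcripts reached that number, the other being the 1534 nt transcript of HIST1H2BG with 20 of 20, and 0.331% of all annotated transcripts did. The HIST1H1E transcript stops after 13 bases of a stem-loop, so the search counted it among those with no full match. Whether the A-rich end bears on the HIST1H4C counts was not tested.

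At 1 count or more in any of the 8 PromethION libraries, 49 of 75 replication-dependent genes and 11 of 16 variant genes were detected, and 14 and 8 of them were detected in all 8. These shares were not tested against each other. At 5 counts or more the numbers were 36 and 10. Another 26 replication-dependent and 5 variant genes had 0 counts in all 10 libraries. By type, all 6 H1 genes, 11 of 17 H2A genes, 15 of 22 H2B genes, 8 of 15 H3 genes and 9 of 15 H4 genes were detected. A PromethION library held between 22 detected replication-dependent genes, in OVTOKO, and 42, in COV504.

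Annotated ends went with detection. Of the 34 replication-dependent genes whose transcripts all stop at the coding end, 22 had 0 counts in all 10 libraries and 12 were detected on PromethION. Of the 37 with a transcript that has an annotated 3′ UTR, 1 had 0 counts throughout and 36 were detected. Of the 4 with no coding sequence annotated, 3 had 0 counts throughout and 1, HIST2H2BC, was detected. Whether genes at 0 were not transcribed, or their reads could not be assigned to so short an annotation, cannot be told apart in these files.

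The replication-dependent genes lie in clusters, and detection covered all of them. HIST1, the largest cluster, holds 56 genes at chr6:25726132-27893843, of which 35 were detected. HIST2 on chromosome 1 holds 14, of which 11 were detected, HIST3 at chr1:228424845-228464626 holds 4, of which 2 were, and the single HIST4 gene on chromosome 12 was detected too. Copies inside HIST2 are identical in sequence: HIST2H2AA3 and HIST2H2AA4, HIST2H3A and HIST2H3C, and HIST2H4A and HIST2H4B each share an annotated transcript sequence at 100% over the shorter transcript. How their reads were divided is not given in the sources used here, so values for a single copy are uncertain. H3F3C, a retrocopy, matches H3F3B at 96.1%.

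Variant genes held most histone counts. The 16 variants summed to 3704, 2844, 4757, 2463, 2883 and 4377 CPM in SK-OV-3, OVMANA, OVKATE, OVTOKO, COV362 and COV504, and to 2560 and 2462 CPM in the IGROV-1 PromethION libraries. The 75 replication-dependent genes summed to 452, 229.8, 496, 179, 374 and 686 CPM in the same lines and to 505 and 452 CPM in IGROV-1. Replication-dependent genes thus gave between 6.76% of histone counts in OVTOKO (95% Wilson interval 6.07% to 7.53%) and 16.5% in the first-numbered IGROV-1 library (15.6% to 17.4%) on PromethION. Intervals and floors here cover counting error only.

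**Figure D1:**
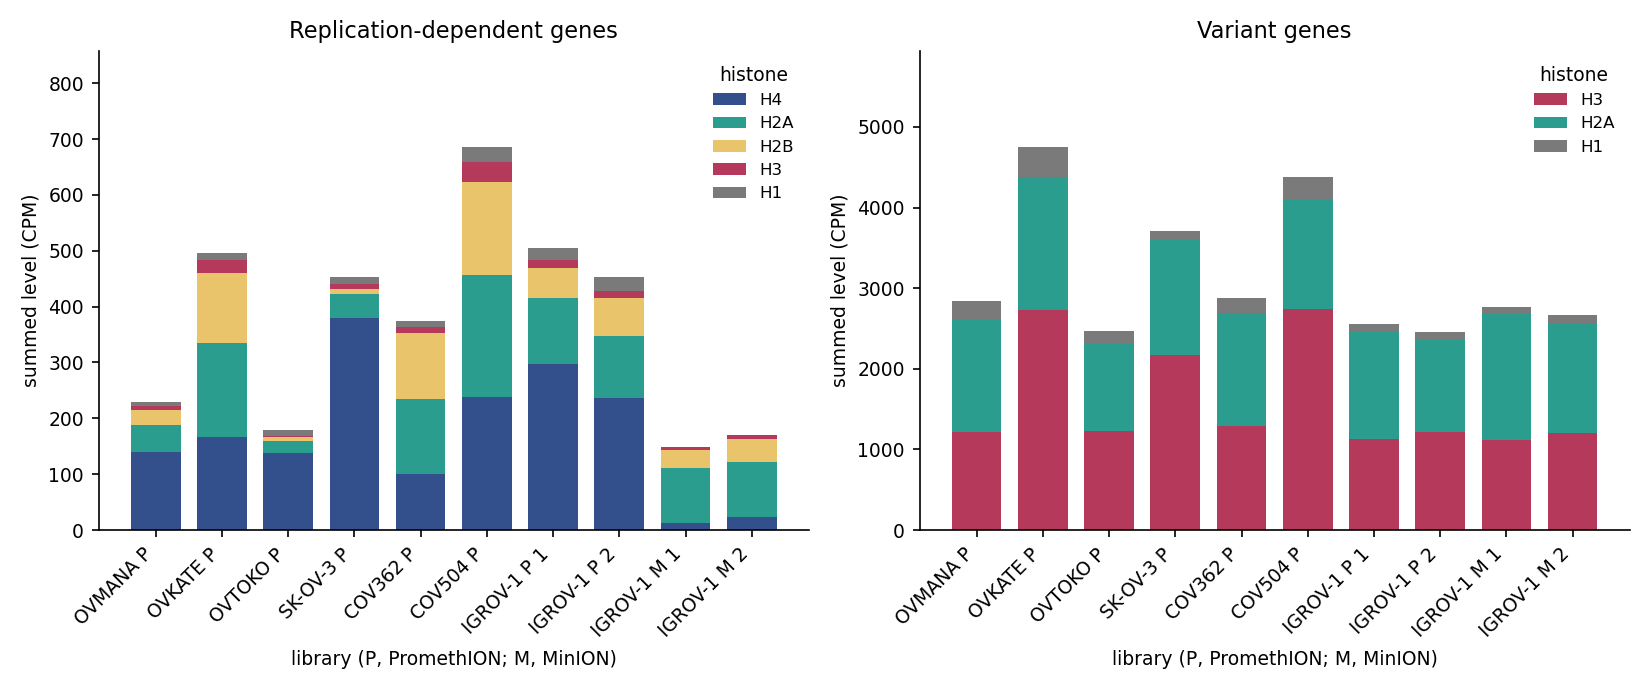
Summed level in CPM (vertical axis, from 0) of the replication-dependent (left) and variant (right) histone genes in each of the 10 libraries, stacked by histone type. The left panel runs from 179 CPM in OVTOKO to 686 CPM in COV504 on PromethION, and its H4 part, the bottom block, is 13.4 and 22.6 CPM in the MinION libraries of IGROV-1.

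The lines did not rank alike in both kinds. Variants were lowest in OVTOKO and highest in OVKATE, 1.93 times apart, and replication-dependent genes were lowest in OVTOKO and highest in COV504, 3.84 times apart. IGROV-1 was ranked by the mean of its PromethION libraries. For variants that mean was 2511 CPM, close to OVTOKO at 2463 CPM, and the second-numbered IGROV-1 library stood at 2462 CPM. H4 genes ranked differently from H2A and H2B genes: they summed to 380.4 CPM in SK-OV-3, the highest line, and to 101 CPM in COV362, the lowest. H1 and H3 genes each had an order of their own, from 8.55 CPM in OVMANA to 28.0 CPM in COV504 for H1. For H3 the range was from 1.73 CPM in OVTOKO to 35.6 CPM in COV504. H2B genes summed to 6.94 CPM in OVTOKO, 8.61 CPM in SK-OV-3 and 26.7 CPM in OVMANA, to 55.1 and 68.7 CPM in IGROV-1, and to 117, 125 and 166 CPM in COV362, OVKATE and COV504. H2A genes had the same order of lines as H2B, from 21.97 CPM in OVTOKO to 219 CPM in COV504. Genes of the HIST2 cluster spread most, from 5.20 CPM in OVTOKO to 150.4 CPM in OVKATE, 28.9 times apart. These sums are descriptions of 1 library a line, other than IGROV-1, and carry no test.

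H3F3B and H3F3A encode the same protein, H3.3, the H3 that is deposited outside S phase. H3F3B (ENSG00000132475, chr17:75776434-75785486) stood at 1281, 633, 1990.2, 854, 735 and 2114 CPM in SK-OV-3, OVMANA, OVKATE, OVTOKO, COV362 and COV504, and at 585 and 706 CPM in IGROV-1 on PromethION and 537 and 655 CPM on MinION. OVKATE and COV504 were highest, and OVMANA and COV362 lay close to the IGROV-1 values. H3F3A (ENSG00000163041, chr1:226061851-226072001) varied less, from 370.0 CPM in OVTOKO to 889.9 CPM in SK-OV-3, with IGROV-1 at 545 and 515 CPM on PromethION and 585 and 550.3 CPM on MinION. H3F3B was above H3F3A in each PromethION library and below it in 1 MinION library.

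H2AFZ and H2AFV encode the closely related proteins H2A.Z.1 and H2A.Z.2, which replace H2A near promoters. H2AFZ (chr4:99948088-99950388) lay between 480.1 CPM in COV504 and 892 CPM in OVKATE, with the IGROV-1 libraries at 698 and 546 CPM on PromethION and 853 and 724 CPM on MinION. The span over the lines was 1.86 times, the smallest of the 8 named variants detected in every line. H2AFV (chr7:44826791-44848083) was 204 CPM in SK-OV-3 and 548 and 515 CPM in COV362 and COV504, against 431 and 409.8 CPM in IGROV-1. H2AFX, the variant phosphorylated at DNA breaks, ranged from 36.4 CPM in OVTOKO to 104 CPM in COV504.

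H2AFJ and H2AFY2 were present in some lines and at 0 in others. H2AFJ (ENSG00000246705, chr12:14774383-14775026), which encodes the H2A variant H2A.J, stood at 82.6, 129, 79.6, 119.7, 73.7 and 117 CPM in SK-OV-3, OVMANA, OVKATE, OVTOKO, COV362 and COV504, and had 0 counts in all 4 IGROV-1 libraries. Every other line was far above IGROV-1, where a count of 0 in both PromethION libraries together allows up to 0.643 CPM. H2AFJ was therefore at least 115-fold higher in COV362 and at least 200.4-fold higher in OVMANA than in IGROV-1. WBP11, a neighbour chosen after its values were seen, stood at 79.4 and 62.3 CPM in IGROV-1 on PromethION and at 40.5 CPM or more in every other line. ARHGDIB, another neighbour, had 0 counts in all 4 IGROV-1 libraries, as it did in SK-OV-3, OVMANA and OVTOKO.

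H2AFY2 (ENSG00000099284, chr10:70052796-70112280) encodes macroH2A2, an H2A with a large globular domain attached. Its level was 52.9 CPM in OVKATE, 28.4 CPM in SK-OV-3 and 38.8 CPM in COV362, and it had 0 counts in OVMANA, OVTOKO, COV504 and both IGROV-1 PromethION libraries. The 3 lines with counts were at least 82.4-fold, 44.1-fold and 60.4-fold higher than IGROV-1. Its relative H2AFY, encoding macroH2A1, was present throughout, from 81.5 CPM in COV362 to 203 CPM in OVKATE. SAR1A, a neighbour of H2AFY2 chosen in the same way, lay between 106 and 243 CPM in all PromethION libraries.

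H1F0 and H1FX encode linker histones made outside S phase. H1F0 (ENSG00000189060, chr22:37805093-37807436) was 2.53, 142, 196, 65.3, 80.7 and 166 CPM in SK-OV-3, OVMANA, OVKATE, OVTOKO, COV362 and COV504, and 59.4 and 48.1 CPM in IGROV-1 on PromethION. SK-OV-3 stood apart from all other libraries, 77.5 times below OVKATE. H1FX was lowest in IGROV-1, at 47.4 and 52.4 CPM on PromethION and 53.5 and 51.9 CPM on MinION, and highest in OVKATE at 183 CPM.

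**Figure D2:**
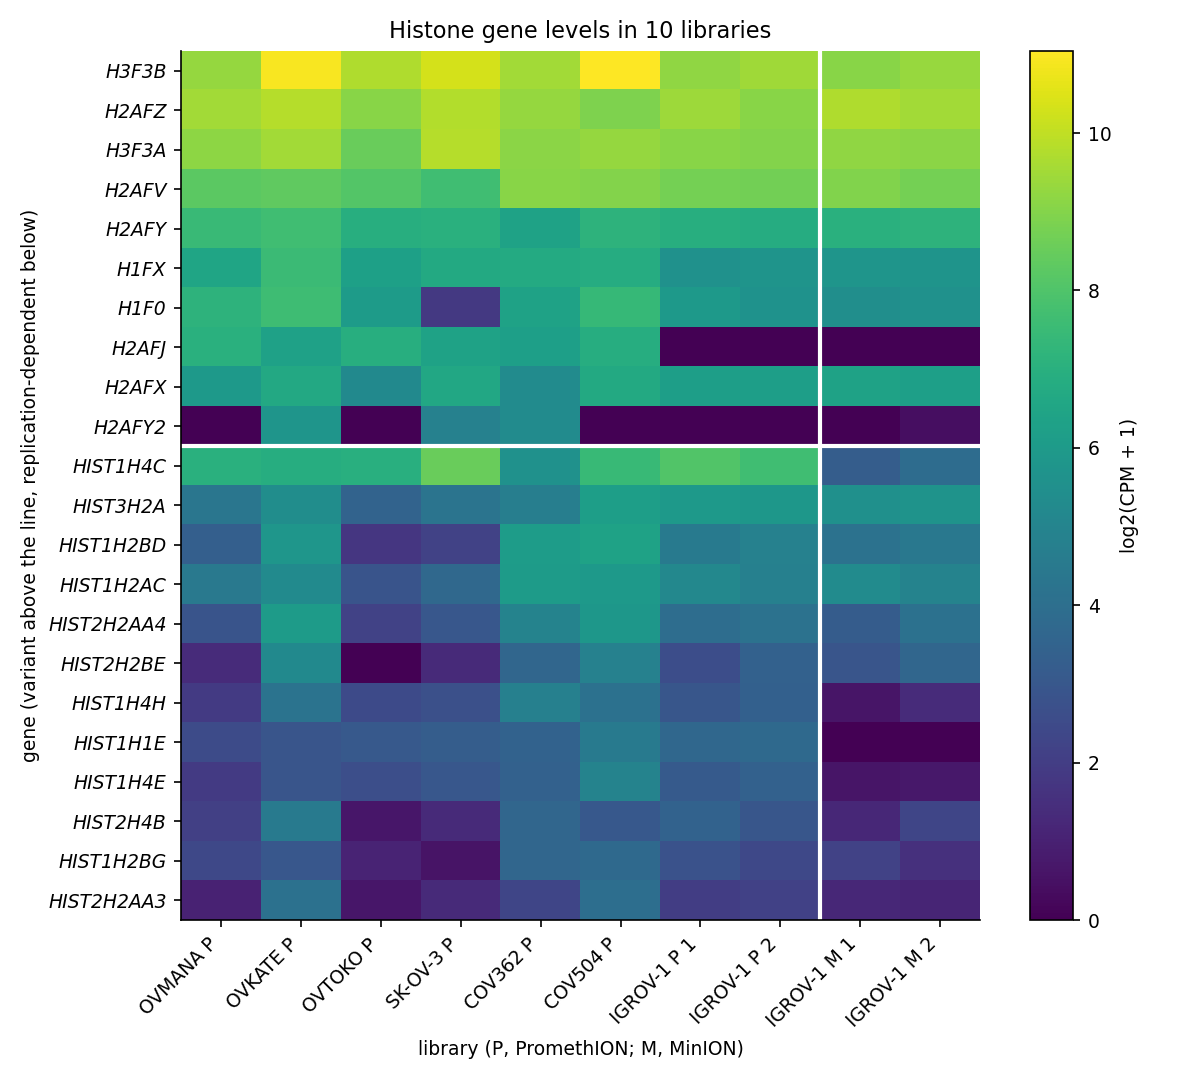
Level of the 22 named histone genes (rows; 10 variants above the white line, 12 replication-dependent genes below) in the 10 libraries (columns; MinION right of the white line), as log2(CPM + 1) in colour. H2AFJ is at 0 in the 4 IGROV-1 libraries, H1F0 is at 2.53 CPM in SK-OV-3, and HIST1H4C is at 8.46 and 13.9 CPM on MinION.

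HIST1H4C (ENSG00000197061, chr6:26103876-26104310), an H4 gene of 1 exon, had the highest mean level of the replication-dependent genes. It stood at 362, 127, 119, 126, 47.4 and 174 CPM in SK-OV-3, OVMANA, OVKATE, OVTOKO, COV362 and COV504, and at 264 and 201 CPM in IGROV-1 on PromethION. SK-OV-3 was highest and COV362 lowest, 7.63 times apart. The remaining 74 replication-dependent genes together summed to between 52.6 CPM in OVTOKO and 513 CPM in COV504. In SK-OV-3 they summed to 90.7 CPM, so a single H4 gene held most of the replication-dependent signal there.

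The next replication-dependent genes were H2A and H2B genes. HIST3H2A (chr1:228456979-228457873) was 18.2, 19.2, 41.1, 10.4, 25.5 and 71.2 CPM in SK-OV-3, OVMANA, OVKATE, OVTOKO, COV362 and COV504, and 59.8 and 55.8 CPM in IGROV-1. HIST1H2BD (chr6:26158146-26171349) was 3.55, 9.08, 54.9, 2.31, 67.0 and 80.5 CPM in the same lines and 22.2 and 28.3 CPM in IGROV-1. HIST1H2AC (chr6:26124145-26139102) was 12.2, 21.4, 38.6, 6.36, 66.6 and 61.4 CPM, and 35.0 and 27.5 CPM in IGROV-1. The last 2 genes were each highest in OVKATE, COV362 and COV504 and lowest in OVTOKO and SK-OV-3, below both IGROV-1 libraries there. HIST2H2AA4 had its highest values in OVKATE (66.3 CPM) and COV504 (56.5 CPM) and its lowest in OVTOKO (3.47 CPM), and HIST2H2BE ran from 0 counts in OVTOKO to 36.6 CPM in OVKATE.

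HIST1H2AC and HIST1H2BD were both lowest in OVTOKO and both above IGROV-1 in OVKATE, COV362 and COV504, so the sequences around their starts are shown. They are the RefSeq promoters, 250 bases before to 50 after the start on GRCh38.p14, both on the plus strand. Capitals mark the TATA box motif TATAAA, the CCAAT box by its letters CCAAT and the octamer motif by the letters TTTGCAT, each searched on both strands and counted without regard to overlap.
HIST1H2AC, chr6:26123922-26124221: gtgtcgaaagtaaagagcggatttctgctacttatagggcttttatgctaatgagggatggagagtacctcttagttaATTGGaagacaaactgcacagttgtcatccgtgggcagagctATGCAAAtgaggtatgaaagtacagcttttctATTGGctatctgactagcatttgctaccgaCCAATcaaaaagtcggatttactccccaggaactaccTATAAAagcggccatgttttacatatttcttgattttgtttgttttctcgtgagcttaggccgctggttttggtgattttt
HIST1H2BD, chr6:26157872-26158171: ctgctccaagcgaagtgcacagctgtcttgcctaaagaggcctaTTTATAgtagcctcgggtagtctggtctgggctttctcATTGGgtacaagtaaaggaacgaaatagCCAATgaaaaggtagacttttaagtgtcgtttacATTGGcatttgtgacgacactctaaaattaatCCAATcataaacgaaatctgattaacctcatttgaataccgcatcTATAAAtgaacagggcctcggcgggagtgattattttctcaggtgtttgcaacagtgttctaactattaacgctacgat
The HIST1H2AC window held 1 TATA box motif, 3 CCAAT boxes and 1 octamer, and that of HIST1H2BD held 2 TATA box motifs, 4 CCAAT boxes and no octamer. Promoters were matched for 61 replication-dependent and 14 variant genes. TATAAA was in 67.2% of the replication-dependent promoters, 28.6% of the variant ones and 11.95% of 27305 promoters, 1 per gene. CCAAT was in 83.6%, 85.7% and 35.7%. The octamer was in 41.0%, 7.14% and 4.51%. Within the replication-dependent promoters it was in 11 of 14 for H2A and 14 of 18 for H2B and in none of 6 for H1, 10 for H3 and 13 for H4, and CCAAT was in 3 of 13 for H4 against all promoters of the other 4 types. No match says only that these letters are not in the window.

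Most replication-dependent transcripts are annotated with 1 exon, but spliced ones took a share of the counts that differed between lines. Of 87 transcripts, 14 have 2 or more exons and 10 of those were detected. They held 5.11% of replication-dependent CPM in SK-OV-3, 8.44% in OVTOKO, 16.03% in OVMANA, 26.3% in both OVKATE and COV504 and 48.2% in COV362, and 13.5% and 16.6% in the IGROV-1 PromethION libraries. In the MinION libraries of IGROV-1 they held 42.3% and 35.2%. Their summed level was 63.0 and 59.6 CPM there, against 68.4 and 75.2 CPM on PromethION in IGROV-1. Transcripts of 1 exon summed to 85.9 and 109.7 CPM on MinION, against 437 and 377 CPM. The share thus rose on MinION without a rise in the level of spliced transcripts. In COV362 and COV504 spliced transcripts summed to 180.3 and 180.6 CPM. HIST1H2AC, HIST1H2BD and HIST1H4H had the highest levels of spliced transcripts. The main HIST1H2BD transcript, 789 nt long, joins exon 1 at chr6:26158146-26158559 to exon 2 at chr6:26170975-26171349 and carries no stem-loop. The 496 nt transcript of that gene, chr6:26158146-26158641, runs on past that splice site and holds the stem-loop.

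Between instruments, IGROV-1 showed lower levels of several replication-dependent genes on MinION, while no variant passed the main test, which left the replicate number out. HIST1H4C fell from 264 and 201 CPM on PromethION to 8.46 and 13.9 CPM on MinION. HIST1H1E, a linker histone gene, fell from 11.96 and 12.9 CPM to 0 counts in both MinION libraries, and HIST1H1A from 7.26 and 9.02 CPM to 0 counts. HIST1H4E went from 7.69 and 9.88 CPM to 0.546 and 0.618 CPM, HIST1H4H from 6.83 and 9.45 CPM to 0.546 and 1.54 CPM, and HIST1H2BL from 5.55 and 4.72 CPM to 0.273 CPM and 0. For each of these 6 genes both PromethION values lay above both MinION values. Groups did not overlap for 47.7% of all genes tested either.

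In edgeR's quasi-likelihood test with Benjamini-Hochberg adjustment, 6 histone genes were called at an adjusted p under 0.05, all lower on MinION, out of the 21 that passed the expression filter (13 replication-dependent and 8 variant). Of all 10041 genes tested, 0.817% were called, 0.707% lower and 0.11% higher. HIST1H4C changed by -4.43 on the log2 scale (SE 0.23, adjusted p = 2.56e-05), HIST1H4E by -3.86 (SE 0.49, adjusted p = 0.0125), HIST1H4H by -2.99 (SE 0.51, adjusted p = 0.0390) and HIST1H2BL by -4.82 (SE 0.76, adjusted p = 0.0305). With 0 counts on MinION, HIST1H1E was at least 28.6-fold lower (adjusted p = 0.00361) and HIST1H1A at least 18.7-fold lower (adjusted p = 0.0114), against 3 counts over both MinION libraries. In the fits that kept all 4 IGROV-1 libraries and had no replicate block, no variant was called by edgeR with this scaling or by DESeq2. None had an unadjusted p under 0.05 in those fits. With the replicate number as a block, edgeR called 1 of the 8 variants, H2AFZ, higher on MinION. The share of all genes called with that block is not given here. The calls rest on 2 libraries a side: without either MinION library edgeR called no histone gene (6 and 8 had an unadjusted p under 0.05), and without the second PromethION library it called 3. In those 2 fits without a MinION library the HIST1H4C difference was -4.14 and -4.76, with adjusted p = 0.0946 and 0.107, and over all alternatives its adjusted p ran from 3.12e-243 to 0.107.

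**Figure D3:**
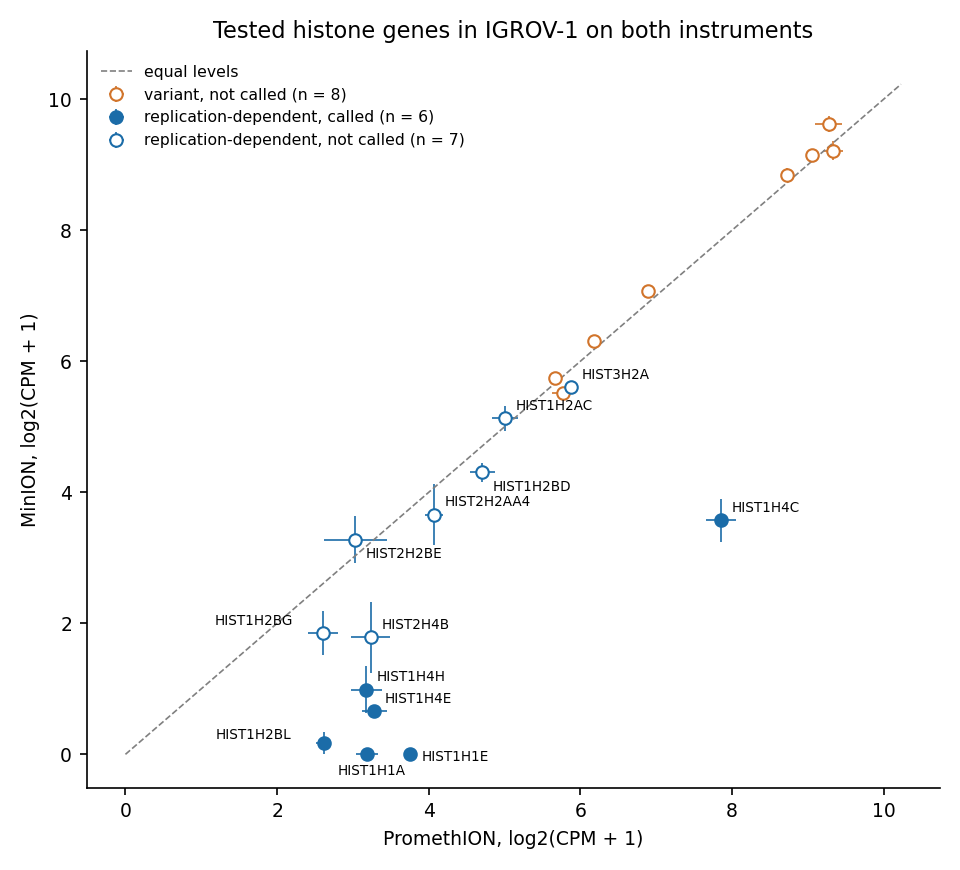
Level of the 21 tested histone genes in IGROV-1 on PromethION (horizontal) and MinION (vertical), both as log2(CPM + 1). Points are means of 2 libraries on that scale and bars span the 2 libraries; the 6 filled points are genes called lower on MinION and sit below the dashed line of equal levels.

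The other 7 replication-dependent genes tested were not called. HIST3H2A was 59.8 and 55.8 CPM on PromethION and 45.01 and 50.4 CPM on MinION. HIST1H2AC was 35.0 and 27.5 CPM against 39.0 and 29.7 CPM, and HIST2H2BE was 5.13 and 9.88 CPM against 6.55 and 11.4 CPM, so the ranges of both genes overlapped. HIST2H4B was 10.3 and 6.87 CPM on PromethION and 1.36 and 4.02 CPM on MinION, without overlap, and differed by -1.74 (SE 0.48) on the log2 scale with an adjusted p of 0.145 in edgeR. HIST1H2BG, at 5.98 and 4.30 CPM against 3.55 and 1.85 CPM, differed by -0.93. The median difference was -1.74 over the 13 replication-dependent genes tested, 0.07 over the 8 variants and 0.00 over all genes tested. Genes pass the filter when they are high enough on either instrument, so these medians describe the genes that passed.

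Summed by type, the drop was steepest for H4 and H1. H4 genes summed to 267 ± 43 CPM on PromethION and 18.0 ± 6.5 CPM on MinION (mean ± SD, n = 2 each), and H1 genes to 22.9 ± 1.0 CPM and 0. H2A genes summed to 114 ± 4.1 CPM and 98.4 ± 1.5 CPM, H2B genes to 61.9 ± 9.6 CPM and 36.9 ± 6.7 CPM, and H3 genes to 12.8 ± 0.56 CPM and 5.78 ± 0.31 CPM. All replication-dependent genes fell from 479 ± 37 CPM to 159 ± 14 CPM, a ratio of 3.01, and without HIST1H4C from 246 ± 7.6 CPM to 148 ± 11 CPM, a ratio of 1.66. Variants summed to 2511 ± 69 CPM and 2722 ± 70.3 CPM. The MinION libraries were the deeper ones, at 3236559 and 3666224 counts against 2328087 and 2341102.

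By annotated end, transcripts that run past the stem-loop summed to 186 ± 2.2 CPM on PromethION and 117 ± 7.4 CPM on MinION. Transcripts that stop at the coding end summed to 11.8 ± 0.96 CPM and 0.136 ± 0.19 CPM, and those that end at the stem-loop to 6.80 ± 1.8 CPM and 2.77 ± 0.44 CPM. The other 13, with no full stem-loop match, summed to 275 ± 38 CPM and 39.4 ± 6.8 CPM. HIST1H4C, 1 of these 13, had means of 232.5 and 11.2 CPM. The 24 transcripts with a polyadenylation signal in their last 50 bases summed to 185 ± 6.5 CPM and 136 ± 13 CPM, a ratio of 1.37. The 62 without a signal, leaving out HIST1H4C, summed to 60.8 ± 1.1 CPM and 12.2 ± 2.8 CPM, a ratio of 4.999. HIST1H4E and HIST1H4H, both called lower, are each counted on an annotated transcript with the signal AATAAA that runs past its stem-loop. HIST1H4E has no other annotated transcript, so reads with another end could be counted there as well. The files hold no read ends, and poly(A) tails, transcript length, RNA handling and instrument cannot be told apart by this design.

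**Figure D4:**
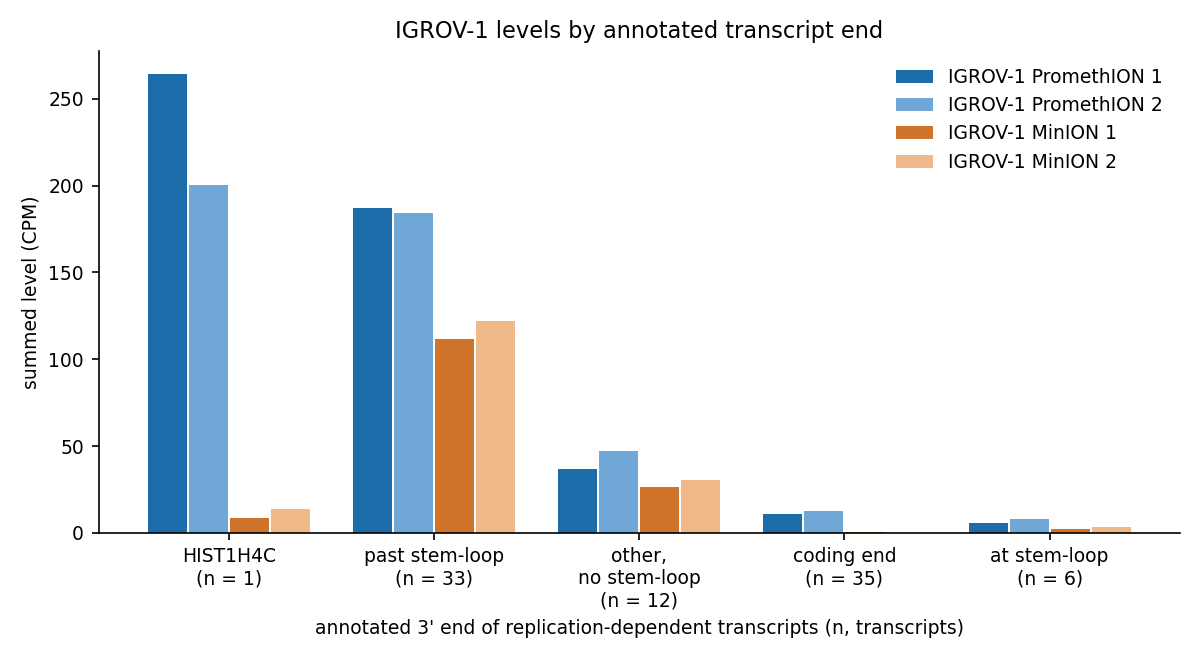
Summed level in CPM (vertical axis, from 0) of replication-dependent transcripts in the 4 IGROV-1 libraries, grouped by their annotated 3′ end, with HIST1H4C on its own. HIST1H4C falls from 264 and 201 CPM to 8.46 and 13.9 CPM, while transcripts past the stem-loop fall from 187 and 184 CPM to 112 and 122 CPM.

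Transcripts of HIST1H2BD differed between instruments as well. The gene has a transcript of 1 exon that runs past the stem-loop and the spliced one without it, and both carry AATAAA in their last 50 bases. The 1-exon transcript made up 25.0% (95% Wilson interval 15.2% to 38.2%, 52 counts for the gene) and 15.4% (8.44% to 25.7%, 66 counts) of the gene on PromethION. On MinION its share was 1.65% (0.285% to 8.59%, 62 counts) and 2.99% (0.823% to 10.3%, 67 counts). Transcript usage of HIST1H2BD was called between instruments (edgeR diffSpliceDGE, Simes p per gene, Benjamini-Hochberg adjusted p = 0.0465), 1 of the 5 histone genes tested for usage, against 5.91% of 2979 genes tested. That call was lost when any of the 4 libraries was left out. The 1-exon transcript differed by -3.42 on the log2 scale (edgeR, adjusted p = 0.0479 over all transcripts) and the spliced one by -0.20 (adjusted p = 0.736). At the transcript level 7 histone transcripts were called lower on MinION, where 1.42% of all 14023 transcripts tested were called lower, 0.87% higher and 2.29% in either direction.

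Each other line was compared with the IGROV-1 PromethION libraries in a single edgeR fit over all 10 libraries. All 6 comparisons share those IGROV-1 libraries, and the spread comes from the 2 IGROV-1 pairs alone, with 2 residual degrees of freedom. Same-numbered IGROV-1 libraries deviated together across the instruments, so the 2 pairs may not be independent. A line with 1 library is taken to have the same spread. Of 92 members, 35 passed the filter, 25 replication-dependent and 10 variant. Between 34.1% and 49.2% of all 13030 genes tested were called in a line, so calls are common there.

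In OVMANA, 7 replication-dependent genes were called lower and none higher, and 4 variants higher, where 35.4% of all genes were called, 18.9% higher and 16.5% lower. OVTOKO had 10 replication-dependent genes lower, 2 variants higher and 2 lower, against 34.1% of all genes, 18.2% higher and 15.9% lower. SK-OV-3 had 1 replication-dependent gene higher and 11 lower, and 5 variants higher and 2 lower, against 41.8%, 22.0% higher and 19.8% lower. OVKATE had 6 replication-dependent genes higher and 7 lower, and 6 variants higher and 1 lower, against 49.2%, 26.8% higher and 22.4% lower. COV362 had 5 replication-dependent genes higher and 3 lower, and 4 variants higher and 2 lower, against 42.5%, 23.7% higher and 18.8% lower. COV504 had 9 replication-dependent genes higher and 1 lower, and 4 variants higher, against 43.5%, 24.0% higher and 19.6% lower. In either direction, between 28.0% and 52.0% of the 25 replication-dependent genes tested were called in a line, near the share of all genes. DESeq2 called 2 to 7 of the 35 members in a line, and without the first-numbered MinION library edgeR called 8 in OVTOKO in place of 14. The 7 replication-dependent calls in OVMANA became 12 without the first-numbered PromethION library and 4 without either MinION library, and the 10 in OVTOKO became 6 without the first-numbered MinION library. The 4 variant calls in OVTOKO became 2 without the first-numbered library of either instrument. With library totals alone as the scaling, an alternative chosen after seeing the data, OVKATE had 8 replication-dependent genes higher and 4 lower and 8 variants higher and 0 lower, and SK-OV-3 had 2 replication-dependent genes higher and 8 lower. The replication-dependent calls in OVKATE thus leaned lower under one scaling and higher under the other. Shares of all genes called are given here for the main fit only. Variant calls became 4 higher and 1 lower in OVMANA with library totals, and, with the size factors of DESeq2, 3 and 1 in OVTOKO and 4 and 1 in COV362.

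The direction of the replication-dependent genes differed between lines. Fitted differences lay below 0 for 23 of 25 tested genes in SK-OV-3, 23 in OVMANA and 24 in OVTOKO, and above 0 for 17 in COV362 and 20 in COV504, with 11 above and 14 below in OVKATE. Medians over these 25 genes were -1.49 in OVMANA, -2.21 in OVTOKO, -1.59 in SK-OV-3, -0.33 in OVKATE, 0.42 in COV362 and 0.89 in COV504. With genes at 0 in a group put at the bound that 3 counts allow, they were -1.24, -1.87, -1.38, -0.33, 0.32 and 0.89. The median over all genes tested lay between -0.01 and 0.04 in each comparison, and with library totals alone as the scaling it moved to 0.31 in OVKATE and 0.20 in SK-OV-3. A gene can pass the filter by being high enough in any library, IGROV-1 included, so these counts and medians describe only the genes that passed. Whether the fitted differences from IGROV-1 differ between lines was not tested.

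**Figure D5:**
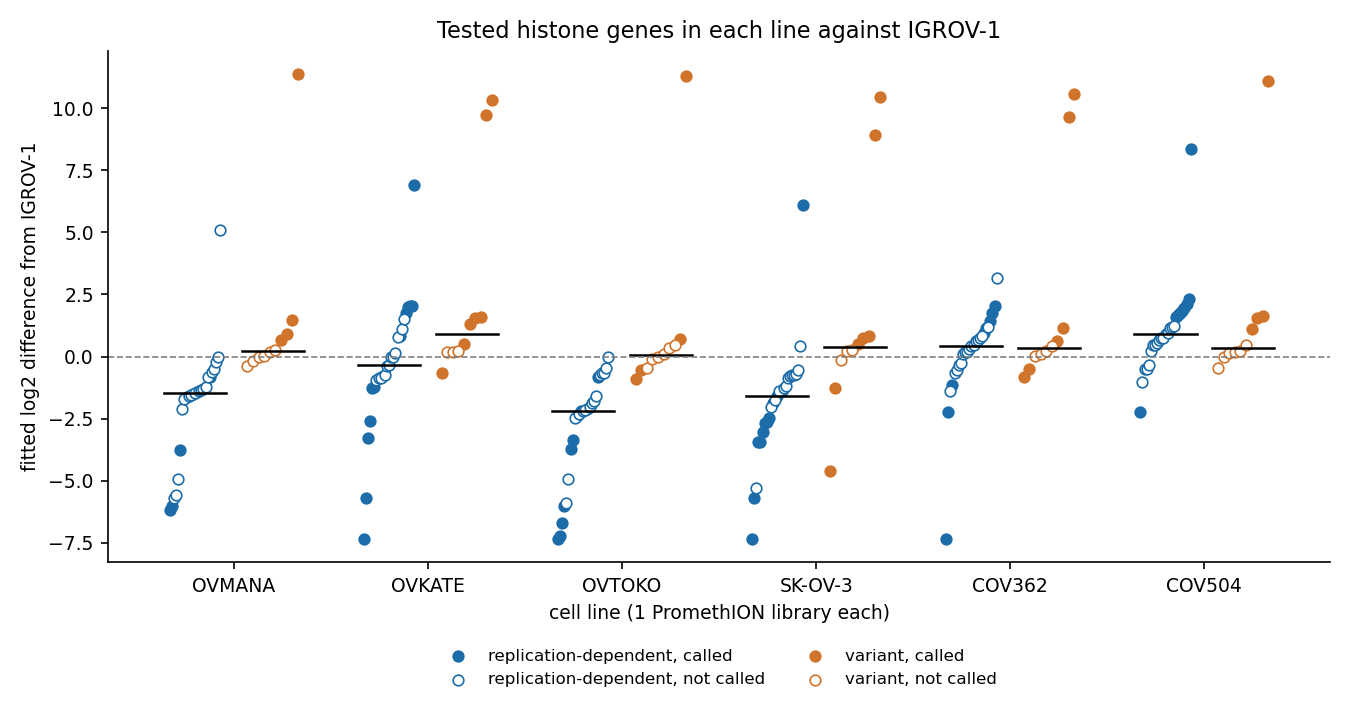
Fitted log2 difference from IGROV-1 (vertical axis) of the 35 tested histone genes in each line, replication-dependent in blue and variant in orange, filled where called and with the median as a black bar. The orange points above 8 are H2AFJ and H2AFY2, which had 0 counts in IGROV-1 on PromethION, so their heights are no estimate of size; the same holds for HIST1H3G, the highest blue point in COV504, OVKATE and SK-OV-3.

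Named variants carried the calls least touched by the processing. H2AFJ was called higher in all 6 lines in edgeR, and the call was kept in each line under every alternative run, where the highest adjusted p was 0.0156, in OVTOKO. H1F0 was higher by 1.46 (SE 0.18) in OVMANA, 1.57 (SE 0.18) in OVKATE and 1.55 (SE 0.18) in COV504 and differed by -4.605 (SE 0.36) in SK-OV-3 on the log2 scale, each called under every alternative. H3F3B rose by 1.32 (SE 0.17) in OVKATE and 1.63 (SE 0.17) in COV504, called under every alternative, and by 0.76 (SE 0.17) in SK-OV-3, where the highest adjusted p over the alternatives was 0.0529. H1FX was called higher in all 6 lines, by 0.69 in OVTOKO to 1.58 in OVKATE, and held under every alternative in OVKATE alone. H2AFV was lower in SK-OV-3 by -1.27 (SE 0.19). H2AFZ was not called in any line.

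Among replication-dependent genes, HIST3H2A was called lower in OVMANA (-1.52), OVTOKO (-2.39), SK-OV-3 (-1.89), COV362 (-1.14) and OVKATE (-0.79), with COV504 at 0.22 and not called. HIST1H2BD was called in all 6 lines, lower in SK-OV-3 (-3.04), OVMANA (-1.41) and OVTOKO (-3.35) and higher in OVKATE (0.82), COV362 (1.45) and COV504 (1.59). HIST1H4C was called lower in COV362 (-2.25, SE 0.26), OVKATE (-1.27, SE 0.24), OVMANA (-0.81) and OVTOKO (-0.81), and its 0.41 in SK-OV-3 was not called (adjusted p = 0.160, edgeR). HIST2H2AA4 was called higher in OVKATE (1.76), COV504 (1.75) and COV362 (0.97) and lower in OVTOKO (-2.10) and SK-OV-3 (-1.38). Of these calls, those of HIST3H2A and HIST1H2BD in OVTOKO and SK-OV-3 and of HIST1H4C in OVKATE and COV362 were kept under every alternative. HIST2H2AA4 shares its annotated sequence with HIST2H2AA3, so its differences are uncertain for a single copy.

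Low genes gave the remaining large differences. HIST1H3G had 0 counts in all 4 IGROV-1 libraries and stood at 17.4 CPM in COV504, 7.42 CPM in OVKATE and 4.05 CPM in the SK-OV-3 library, which put it at least 27.0-fold, 11.5-fold and 6.31-fold above IGROV-1. HIST1H1A, a linker histone gene, was at 0 in OVKATE, OVTOKO, SK-OV-3 and COV362 and so at least 5.49-fold, 4.69-fold, 5.36-fold and 6.93-fold lower than on PromethION in IGROV-1. HIST2H2BE, at 0 in OVTOKO, was at least 4.33-fold lower there. HIST1H2BE had 13.8 CPM in COV504 and 0 counts in OVMANA, OVKATE and SK-OV-3, against 2.14 and 3.01 CPM in IGROV-1. HIST1H3E and HIST1H2AG had 0 counts in OVMANA against 3.84 and 3.44 CPM and 3.42 and 3.01 CPM in IGROV-1, HIST1H4J was 0.495 CPM in OVKATE against 3.42 and 5.15 CPM, and HIST1H2BJ was 7.84 CPM in COV362 against 1.28 and 2.58 CPM.

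Tested for any difference among the 7 lines at once, 29 of the 35 histone genes were called in edgeR, against 81.3% of all genes tested. HIST1H2AE, HIST1H2BC, HIST1H2BN, HIST1H3D, HIST1H4J and H2AFZ (adjusted p = 0.140) were not. The calls of 12 genes held under every alternative: H1F0, H1FX, H2AFJ, H2AFV, H2AFY2, H3F3B, HIST1H2AC, HIST1H2BD, HIST1H4C, HIST2H2AA4, HIST2H2BE and HIST3H2A. DESeq2 called 12 of the 35, and its share over all genes is not given here. HIST2H2AA4 has an identical copy, so its call is uncertain for a single copy.

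Transcripts of the variants differed between lines too. H2AFY has a 1859 nt transcript in which the exon at chr5:135350823-135350913 stands in place of that at chr5:135352946-135353045 in its main, 2789 nt transcript. The 1859 nt transcript made up 23.7% of H2AFY counts in SK-OV-3 (95% Wilson interval 18.7% to 29.1%, 251 counts) and 13.2% in COV504 (9.92% to 17.4%, 318 counts). In IGROV-1 it made up 2.92% (1.42% to 5.42%) and 3.32% (1.80% to 6.35%) on PromethION and 3.75% and 3.27% on MinION, and in OVMANA, OVKATE, OVTOKO and COV362 1.16%, 1.98%, 2.69% and 7.75%. Usage of H2AFY transcripts was called in SK-OV-3 (edgeR diffSpliceDGE, adjusted p = 0.00450) and COV504 (adjusted p = 0.0402), of 6 histone genes tested, where 2.01% and 2.54% of 4730 genes were called; over the 6 lines that share ran from 1.31% in OVTOKO to 4.76% in OVKATE, with 2.79% in OVMANA and 2.75% in COV362. H2AFV usage was called in COV504 (edgeR diffSpliceDGE, adjusted p = 0.0170). Its 3804 nt transcript, which has another last exon, at chr7:44826791-44830163, made up 2.94% (2.11% to 4.08%) there and 7.65% and 10.4% in IGROV-1 on PromethION. The share was 5.11% and 6.56% in IGROV-1 on MinION. In OVMANA, OVKATE, OVTOKO, SK-OV-3 and COV362 it was 8.89%, 11.7%, 3.99%, 9.43% and 4.73%. No usage call held when any 1 of the 4 IGROV-1 libraries was left out, although 6 to 8 gene and line pairs then had an unadjusted p under 0.05.

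Genes that act on histone mRNA were followed in lists, and their counts are read against the 81.3% of all genes that differed among the lines. Of 9 genes that drive histone gene transcription, among them NPAT and the cyclin E genes, 5 differed among the lines in edgeR: CCNE1, which with CDK2 switches on S phase, stood at 79.6 CPM in OVMANA and 15.8 and 14.6 CPM in IGROV-1, CDK2 was highest in OVKATE (64.3 CPM) and E2F1, a transcription factor of S phase genes, also in OVKATE (49.5 CPM). Of 15 histone pre-mRNA processing genes 11 differed, among them LSM10, a subunit of the U7 particle that cuts at the stem-loop, at 118 CPM in SK-OV-3 and 54.7 and 53.7 CPM in IGROV-1. SLBP, which binds the stem-loop, ranged from 85.1 CPM in SK-OV-3 to 181 CPM in OVKATE. Of 7 histone mRNA decay genes 6 differed, and ERI1, a nuclease that trims at the stem-loop, was 61.3 CPM in OVTOKO against 30.8 and 30.1 CPM in IGROV-1. Of 27 chaperone and deposition genes tested 21 differed, with ASF1B, an H3-H4 chaperone, from 12.7 CPM in SK-OV-3 to 108 CPM in OVKATE, and NASP, another, highest in IGROV-1 at 234 and 249.6 CPM.

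S phase and mitosis genes were followed in the same way, and 18 of 20 and 12 of 12 differed among the lines in edgeR. Of the 20 replication genes tested, 17 were called lower in SK-OV-3 with a median of -1.74 on the log2 scale, 11 in OVMANA (-0.79), 9 lower and 1 higher in OVKATE (-0.72) and 8 in OVTOKO (-0.52). In COV362 2 were lower and 2 higher (-0.17), and in COV504 4 lower and 1 higher (-0.25). Of all genes tested, 19.8%, 16.5%, 22.4%, 15.9%, 18.8% and 19.6% were called lower in those 6 lines, in the order SK-OV-3, OVMANA, OVKATE, OVTOKO, COV362, COV504. Of 12 genes of G2 and mitosis, 6 were called higher and 0 lower in COV362 (median 0.61), 4 and 1 in COV504 (0.19), 4 and 1 in OVMANA (0.09), 1 and 4 in OVKATE (-0.22), 0 and 4 in SK-OV-3 (-0.22) and 0 and 4 in OVTOKO (-0.53). The summed level of the replication genes was 754 CPM in SK-OV-3, against 2280.1 and 1933 CPM in IGROV-1. SK-OV-3 thus had the lowest sum of replication genes and the highest HIST1H4C level. Between instruments 0 of these 20 were called in edgeR, nor were any of the 8 transcription, 15 processing, 7 decay or 27 chaperone genes tested there. Of the 12 genes of G2 and mitosis 1 was called, CENPF, a kinetochore protein, lower on MinION by -0.74 (SE 0.13, edgeR adjusted p = 0.0390). The part of S phase and mitosis genes in the line differences was not tested.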

How the data were processed

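The 10 libraries were grouped as in the labels, by cell line and instrument. Per the labels, libraries were made with a nanopore ligation kit from total RNA. Per the submitters' processing notes, reads were aligned with minimap2 2.24-r1122 to GRCh38; for the quantification tool, annotation release, filters and use of strand the entry is "not given in the sources used here", so reads of a gene and its antisense partner cannot be told apart. The authors deposited, per transcript, an estimated count, which need not be whole, and a value headed TPM that equals CPM (the estimated count divided by the library total), with no division by length.

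Counts were summed per gene and rounded for tests. The main test was edgeR 4.0.16 (R 4.3.3): TMM scaling, its expression filter by group, the quasi-likelihood test, two-sided, with Benjamini-Hochberg adjustment over all genes or transcripts tested and a threshold of 0.05. Differences are log2 changes. The instruments were compared on the 4 IGROV-1 libraries, the lines on all 10 libraries. Transcript usage was tested with diffSpliceDGE. Alternatives were DESeq2 1.42.0, other scalings, no filter, other windows and leaving out each IGROV-1 library; scaling by library totals alone and leaving out HIST1H4C were added after seeing the data. The tests were tried on simulated data. Named genes were the variants with a mean of at least 10 CPM over the lines, the 12 replication-dependent genes with the highest mean, up to 3 called members in each direction with the largest change in each comparison, and up to 3 genes of each pathway list with the smallest p among the lines. The members and lists were chosen with earlier results of these data known. Stem-loops and ends were read from GENCODE 29 transcripts and promoters from RefSeq on GRCh38.p14; HIST1H4C had no promoter entry. Figures were drawn with matplotlib 3.10.9.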

Additional observations from a re-analysis of the deposited data

How the results depend on the processing

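Depth limits low genes: 3 counts, the limit that a count of 0 allows, are 1.18 to 1.73 CPM in a library of the other lines. Between instruments, 6 histone genes and 7 transcripts were called; with no filter on low counts 1 and 1 were, DESeq2 called 4 transcripts, and leaving out 1 library gave 0 to 5 of each. With the replicate number as a block, 9 genes (8 replication-dependent lower and 1 variant, H2AFZ, higher, edgeR adjusted p = 8.19e-05), 11 transcripts and 0 usage changes were called. Same-numbered libraries deviated together (r = 0.489 across 7894 genes). KRT18, picked after its values were seen, was 263 CPM on PromethION and 244 CPM on MinION in the first-numbered libraries. It was 1041 and 1080 CPM in the second-numbered ones. The labels name no pairing, and whether same-numbered libraries share a source was not tested. The main test ignored any such pairing. Against IGROV-1, DESeq2 called 2 in OVMANA (main 11), 6 in OVKATE (20), 3 in OVTOKO (14), 7 in SK-OV-3 (19), 3 in COV362 (14), 3 in COV504 (14) and 12 among the lines (29). With no filter 7 were called in OVMANA, and without 1 library 8 to 14 in OVTOKO. Usage changes among lines fell from 2 genes to 1, and between instruments from 1 to 0, at 10 CPM or more, and to 0 without any 1 library. Transcripts that end at the stem-loop held 1.19% of replication-dependent counts, and 9.86% with a window of 60 bases. The summed difference between instruments, -319.7 CPM, was -98.4 CPM without HIST1H4C and -346.2 to -293.2 CPM with 1 library left out. With library totals alone as the scaling, the balance of replication-dependent calls in OVKATE turned, from 6 higher and 7 lower to 8 and 4. Shares over all genes are given for the main fits only, so these changes cannot be read as particular to histone genes. The causes of these changes were not tested.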
